A study of Mus musculus with 18 samples.

Results

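The genes of glycolysis and of the pentose phosphate pathway were followed through 3 cell types of the mouse B lineage and 2 genotypes. A list of 36 genes was used, and all 36 were found by symbol among the 21761 genes of the expression table. It holds the glucose transporters Slc2a1 and Slc2a3, the hexokinases, the enzymes from Gpi1 to Pkm, both lactate dehydrogenase subunits, the lactate and pyruvate carriers Slc16a1 and Slc16a3, 5 regulators (Pdk1, Pdk3, Pfkfb3, Pfkfb4 and Hif1a), the phosphoglucomutases Pgm1 and Pgm2, Bpgm, and 5 enzymes of the pentose phosphate pathway. Of these, 34 exceeded 1 FPKM in 2 or more libraries, the filter for testing. The remaining 2, Hk3 and Eno2, were at most at 0.204 and 0.596 FPKM in any library. In this table Pgm1 is Entrez 66681 and Pgm2 is Entrez 72157.

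The study asked how gene expression changes without Dnmt3a and Dnmt3b, the enzymes that set new DNA methylation, as B cells differentiate. Naive B cells (nB; B220+ GL7- Fas-) came from lymph nodes of unimmunized mice, germinal center B cells (GCB; B220+ GL7+ Fas+ cells that bind phycoerythrin) from lymph nodes 30 days after immunization with phycoerythrin in adjuvant, and bone marrow plasma cells (BMPC; CD138+) from the bone marrow of mice immunized in the same way. Dnmt3-deficient mice carried a Cre active in B cells and Dnmt3-sufficient littermates did not, and all mice carried Dnmt3afl/fl and Dnmt3bfl/fl on a mixed B6;129S4 background and were 8 to 12 weeks old at the start. The floxed parts are the catalytic domains. Each of the 6 groups held 3 libraries of 5000 sorted cells, 18 in all, where a GCB library pooled 2 mice, and replicates are numbered in the order of deposition. The nB and GCB groups each held 2 libraries of female and 1 of male mice, and the BMPC groups 2 of male and 1 of female mice.

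Glycolysis splits glucose into pyruvate and yields ATP without oxygen. Pyruvate is then either reduced to lactate by lactate dehydrogenase and exported by monocarboxylate carriers, or oxidized in mitochondria, where pyruvate dehydrogenase kinases hold back its entry. The pentose phosphate pathway branches off glucose 6-phosphate. Its oxidative arm makes NADPH, and its nonoxidative arm makes ribose for nucleotides and returns carbon to glycolysis. Activated and dividing lymphocytes are known to raise glycolysis, and Hif1a is a transcription factor that drives many of its genes at low oxygen. Plasma cells use much glucose to add sugars to the antibodies they secrete.

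Depth, as reads on genes, lay between 7644544 and 8903872 in GCB, between 6692516 and 8987922 in nB and between 1355231 and 3803197 in BMPC. Levels are given as FPKM, reads per kilobase of exon scaled to the library's reads on genes. One read therefore weighs more in BMPC, where 14 of the 34 tested members had at least 1 library at 0 reads, against 2 in nB and 3 in GCB. The median over tested members of the coefficient of variation within a group was 22.1% in GCB, 31.6% in nB and 79.5% in BMPC, and over all 11522 tested genes 28.8%, 35.5% and 97.8%. Markers were compared with the sort. Of 9 plasma cell markers, the factor Xbp1 was at 559 to 835 FPKM in BMPC and at most 42.9 elsewhere. Irf4 and Tnfrsf13b, also among these markers, overlapped between BMPC and nB, and the median of Tnfrsf13b was lower in BMPC. Dnmt3a and Dnmt3b, summed over all exons, do not resolve the loss of the floxed exons and did not separate the genotypes. In nB, Dnmt3a was at 3.67 ± 1.42 FPKM (SD, n = 3) in Dnmt3-sufficient and 3.48 ± 1.10 in Dnmt3-deficient libraries. Markers of other marrow cells were also detected in BMPC. The summed level of 8 erythroid markers was 192 to 2935 FPKM in BMPC, where all 8 were detected in Dnmt3-sufficient and 7 in Dnmt3-deficient libraries. It was at most 1.45 FPKM in Dnmt3-sufficient and 26.5 to 290 in Dnmt3-deficient nB, and 0.352 to 14.1 and 14.3 to 48.2 in GCB of these genotypes. That of 10 neutrophil markers was 21.3 to 701.5 FPKM in BMPC, where all 10 were detected, and 0 to 0.461 in the other libraries. The defining erythroid marker Klf1 was at 3.09 to 34.7 FPKM in BMPC and at 0 in every nB and GCB library. Markers of early B cells summed to 415 to 808 FPKM in BMPC, 185 to 276 in nB and 263 to 378 in GCB. Among them Dntt was at 305 to 581 FPKM in BMPC and at most 22.3 elsewhere, while Vpreb3 overlapped between the cell types. Cycling markers summed to 175 to 375 FPKM in BMPC, 4.22 to 16.7 in nB and 886 to 1035 in GCB. The part of such cells in the BMPC levels of members was not tested. In bulk samples of this kind, fewer cells with a transcript and less of it per cell cannot be told apart.

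Several glycolytic genes have many processed pseudogenes, and reads were mapped with TopHat set to report at most 1 alignment per read. To describe how far members share sequence with other places, the transcript of each was cut into overlapping words of 31 bases and each word was looked up on both strands of the genome build of the files (mm9, NCBIM37). For Pgam1 and Pgk1, 94.1% and 94.0% of the words found occurred more than once. The share was 86.1% for Gapdh, with a median of 58 copies per word, 79.0% for Eno1, 63.5% for Pkm and 51.4% for Ldha. It was 40.2% to 44.9% for Tpi1, Gpi1, Ldhb and Aldoa, 22.4% for Taldo1 and 0% for both glucose transporters, Tkt, Hif1a and Bpgm. How reads from repeated sequence were placed was not tested, so levels are compared between genes only as a description.

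**Figure D1:**
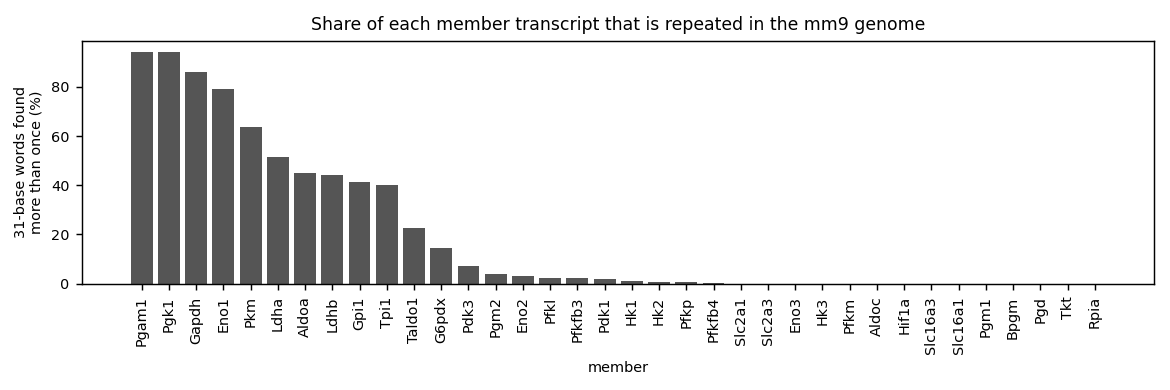
Percent of the 31-base words of each member's transcript that occur more than once in mm9 (bars, y axis), by member (x axis), in falling order. Pgam1, Pgk1, Gapdh, Eno1, Pkm and Ldha all lie above 50%, and most transporters and regulators are close to 0%.

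Reads on the 36 members made up 0.927% to 1.12% of a GCB library (median 1.00%), 0.431% to 0.487% of an nB library (median 0.479%) and 0.270% to 0.455% of a BMPC library (median 0.386%). The GCB libraries thus lay above all others. Read shares and FPKM are relative to all reads of a library. Jchain, a plasma cell marker, was at 16189 to 46609 FPKM in BMPC, 562 to 882 in GCB and 0 to 113 in nB. A lower share or FPKM in BMPC does not by itself show less RNA per cell. The part of such abundant transcripts was not tested. Of the 34 tested members, 18 had their highest mean in GCB (52.9%, against 28.9% of all tested genes) and 20 had their lowest mean in BMPC (58.8%, against 51.3%). Aldoa, the main aldolase, led in nB with 573 ± 39.2 FPKM (SD, n = 6), before Ldha with 262 ± 33.99 and Taldo1 with 250 ± 28.7. In GCB, Ldha with 908 ± 98.6 and Aldoa with 872 ± 115 did not differ beyond their spread, and Pkm followed with 683 ± 60.7. In BMPC, Aldoa (357 ± 67.8), Ldha (321 ± 94.6) and Taldo1 (316 ± 114) did not differ beyond their spread.

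The comparison of GCB with nB asked which of these genes differ between resting and antigen-activated B cells. A lower block of glycolysis was higher in GCB. Of the 7 tested enzymes from Tpi1 to Pkm, 5 rose, and Ldha, which reduces pyruvate to lactate, rose with them, all by 1.70 to 2.70 on the log2(FPKM + 1) scale. Of the 6 enzymes of the upper steps from Gpi1 to Aldoc none passed the test with the 2-fold limit. Slc16a1, a carrier of lactate and pyruvate, rose, while the glucose transporter Slc2a3 and the regulator Pfkfb4 fell. The carrier Slc16a3 was called higher and is counted below. It passed the filter through GCB libraries alone, so its call is no support for a rise. In all, 11 of 34 members were higher (9.47% of all tested genes were) and 2 were lower (12% of all tested genes), by limma with Benjamini-Hochberg adjustment over 11522 genes, an adjusted p of at most 0.05 and a change of at least 1. The median change of the members was 0.61, against -0.13 for all tested genes. All 6 GCB libraries lay above all 6 nB libraries for 12 members (13.2% of all tested genes) and below them for 5 (14.4%). Without Dnmt3-sufficient GCB replicate 1 the number called higher was 7.

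**Figure D2:**
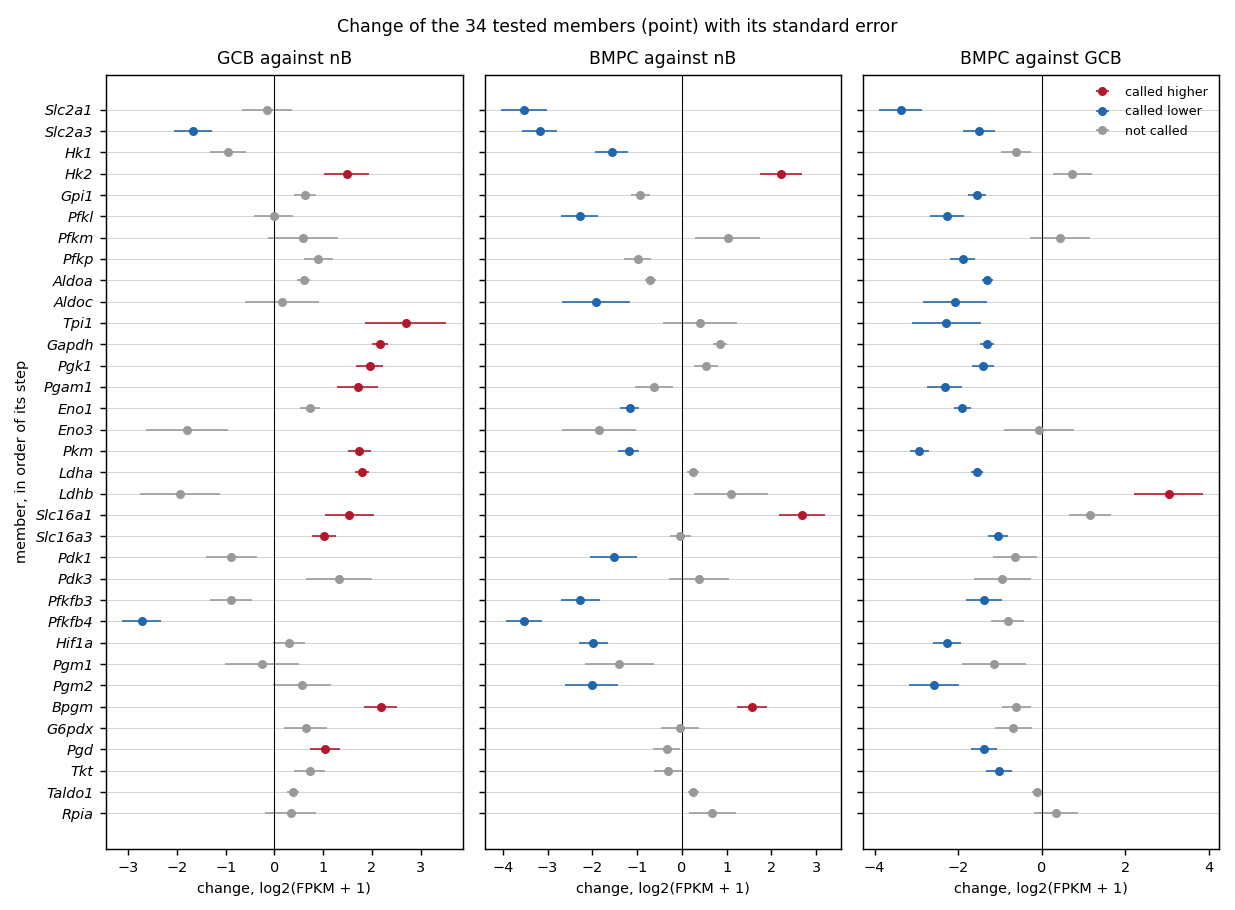
Change of each tested member (points) with its standard error (lines) on the log2(FPKM + 1) scale, for GCB against nB, BMPC against nB and BMPC against GCB, in order of the step each serves. Colors mark members called higher, lower or not called. In the first panel 8 of the 11 members called higher lie between Tpi1 and Slc16a3, the others being Hk2, Bpgm and Pgd, and in the third panel 20 members are called lower and 1 higher.

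Gapdh, which oxidizes glyceraldehyde 3-phosphate, had the smallest p. It was at 43.3, 43.9 and 42.4 FPKM in Dnmt3-sufficient and 37.4, 47.3 and 42.5 in Dnmt3-deficient nB. In GCB it was at 214, 182 and 202 FPKM in Dnmt3-sufficient and 224, 163 and 191 in Dnmt3-deficient libraries. All 6 GCB libraries lay above all 6 nB libraries, and the change was 2.17 (SE 0.16, limma adjusted p 3.74e-08). Ldha ran from 226 to 306 FPKM in nB (median 261) and from 773 to 1041 in GCB (median 903), again without overlap, with a change of 1.79 (SE 0.14, limma adjusted p 7.33e-08). Pkm, pyruvate kinase, ran from 166 to 224 FPKM in nB and from 605 to 774 in GCB, a change of 1.74 (SE 0.23, limma adjusted p 2.01e-05).

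Pgk1, which makes the first ATP of the lower steps, was at 73.9 to 122 FPKM in nB and 312 to 436 in GCB, and rose by 1.95 (SE 0.27, limma adjusted p 3.19e-05). Pgam1, which moves the phosphate of phosphoglycerate, was at 48.0 to 72.3 and 175 to 228 FPKM, and rose by 1.70 (SE 0.42, limma adjusted p 0.0055). Bpgm makes 2,3-bisphosphoglycerate, best known from red cells. It was at 5.20 to 9.32 FPKM in nB and 26.2 to 40.8 in GCB and rose by 2.18 (SE 0.34, limma adjusted p 0.00013). The erythroid markers summed to 0.352 to 48.2 FPKM in GCB and 0.739 to 290 in nB, and their part in this level was not tested. Tpi1, triose phosphate isomerase, had the largest change, 2.70 (SE 0.83, limma adjusted p 0.0228), from 33.5 to 61.9 FPKM in nB to 225 to 370 in GCB. All groups share 1 spread per gene in the fit, and Dnmt3-deficient BMPC replicate 2, which is not part of this comparison, was at 0. Without that library the adjusted p was 1.05e-07. It was 0.05002 without Dnmt3-sufficient nB replicate 1 and 0.0522 without Dnmt3-deficient GCB replicate 1, and 0.366 in Dnmt3-deficient libraries alone.

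Other enzymes of the upper and lower steps were not called. Gpi1, Pfkp, Aldoa and Eno1 were each higher in all 6 GCB than in all 6 nB libraries, with changes of 0.60 to 0.90 and limma adjusted p of 0.0016 to 0.0409. Pfkl, the liver type of phosphofructokinase, was at 33.4 to 49.2 FPKM in nB and 32.8 to 48.1 in GCB. Its change was -0.02 (SE 0.41). Eno3, the muscle type of enolase, had a change of -1.79 (limma adjusted p 0.128), and its 6 GCB libraries (0.146 to 5.01 FPKM) lay below the 6 nB libraries (5.87 to 14.0).

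Of the 2 glucose transporters 1 was called lower. Slc2a1, a widely expressed glucose transporter, was at 15.4 to 29.2 FPKM in nB and 14.1 to 26.04 in GCB, and its change was -0.16 (SE 0.51, limma adjusted p 0.871). Slc2a3, a transporter of higher affinity, was at 6.40, 15.8 and 10.7 FPKM in Dnmt3-sufficient and 10.5, 14.8 and 8.92 in Dnmt3-deficient nB, against 1.67 to 4.24 in GCB. It fell by 1.67 on the log2 scale (SE 0.38, limma adjusted p 0.00330), without overlap of libraries. The fall of Slc2a3 missed the threshold in Dnmt3-deficient libraries alone (adjusted p 0.132) and with a pseudocount of 0.1 (adjusted p 0.0791). On the exit side, Slc16a1 rose by 1.53 (SE 0.51, limma adjusted p 0.0333), from 0.101 to 1.89 FPKM in nB to 2.56 to 10.1 in GCB. This call was lost without any 1 of 7 nB and GCB libraries, which were Dnmt3-sufficient nB replicate 3, Dnmt3-deficient nB replicates 1 and 2, Dnmt3-sufficient GCB replicates 1 and 2, and Dnmt3-deficient GCB replicates 1 and 3, with adjusted p of 0.0520 to 0.0884. Slc16a3 had at most 2 reads in every nB library and stood at 2.14, 1.34 and 2.95 FPKM in Dnmt3-deficient and 1.70, 0 and 0 in Dnmt3-sufficient GCB. Its mean in GCB was at least 8.84-fold higher than in nB, taken at 3 reads per nB library, and its change was 1.01 (SE 0.24, limma adjusted p 0.0043). Every BMPC library was at 0, so the filter admitted Slc16a3 only through the group where it was then called higher. This call was not followed singly under the alternatives.

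Pfkfb4, which sets the level of fructose 2,6-bisphosphate and so the rate of phosphofructokinase, fell by 2.72 on the log2 scale (SE 0.40, limma adjusted p 6.49e-05). It was at 17.1, 15.9 and 7.63 FPKM in Dnmt3-sufficient and 8.68, 16.5 and 15.6 in Dnmt3-deficient nB, and at 2.12, 3.26 and 0.810, and 0.197, 2.14 and 0, in GCB. Every GCB library lay below every nB library. Hif1a was at 7.11 to 10.3 FPKM in nB and 8.75 to 13.1 in GCB, with a change of 0.30 (SE 0.33, limma adjusted p 0.57). In the pentose phosphate pathway, Pgd, the second enzyme of the oxidative arm to release NADPH, rose by 1.03 (SE 0.31, limma adjusted p 0.0191), from 19.8 to 45.9 FPKM in nB to 29.6 to 106 in GCB with overlap. None of Tkt, Taldo1 and Rpia, the listed genes of the nonoxidative arm, was called. The hexokinase Hk2, which commits glucose to the cell, rose by 1.48 (SE 0.47, limma adjusted p 0.0253), from 0.0712 to 4.06 FPKM in nB to 2.42 to 9.79 in GCB, with overlap. The summed level of 6 cycling markers was 4.22 to 16.7 FPKM in nB and 886 to 1035 in GCB, and the part of cell division in these changes was not tested.

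**Figure D3:**
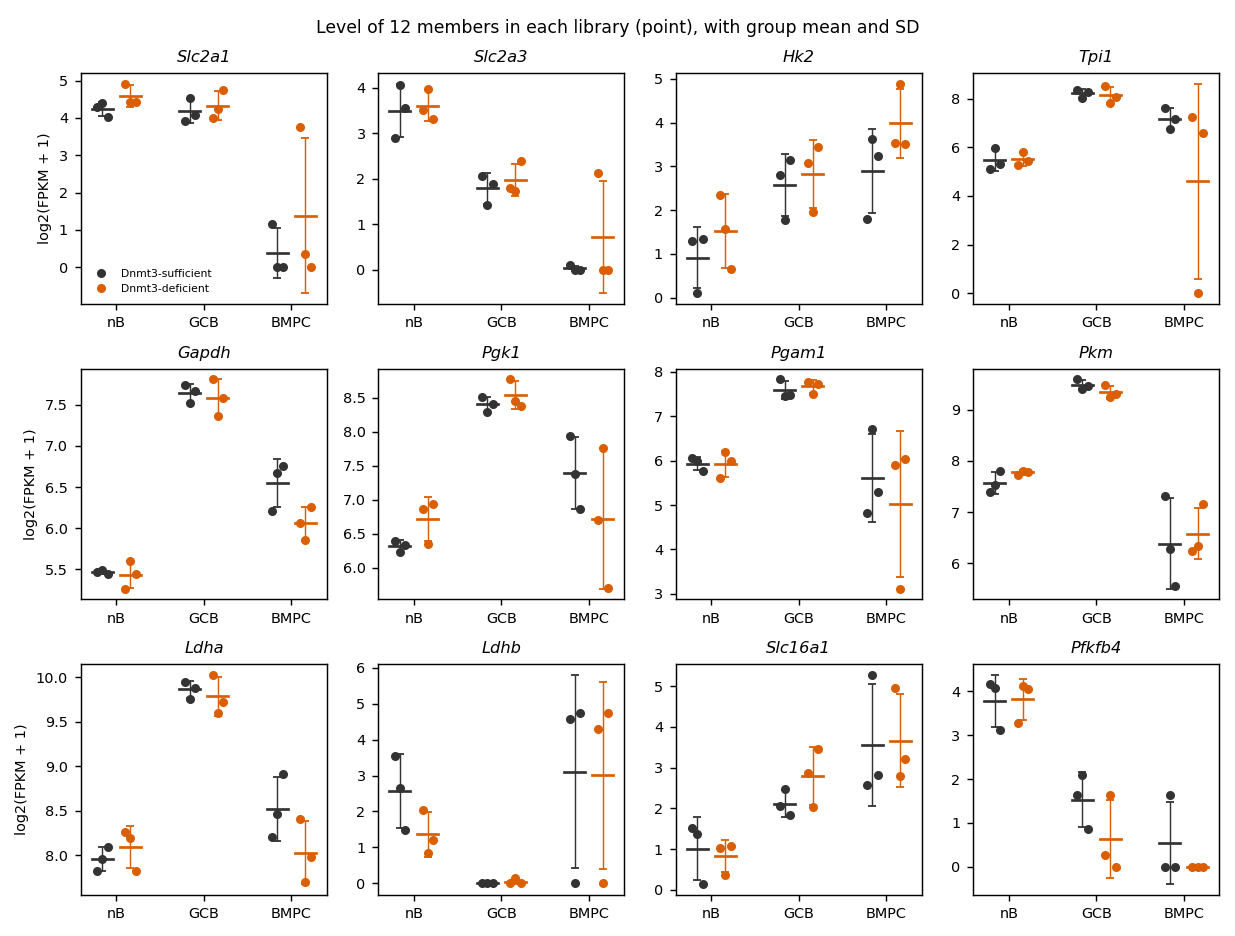
Level of 12 members as log2(FPKM + 1) (y axes) in each library (points) by cell type and genotype, with the mean (bar) and SD (whiskers) of each group of 3. Gapdh, Pgk1, Pkm and Ldha peak in GCB, Slc2a1 and Pfkfb4 are close to 0 in most BMPC libraries, and Ldhb is close to 0 in GCB.

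The promoters of members with the smallest p in this comparison are shown with that of Tpi1, which had the largest change, because 31 of 35 members held the motif described next. The sequences are from RefSeq (GRCm38.p6, strand of the gene, 250 bases before to 50 after a start). For Ldha and Pkm, which have 2 starts each, the start with more matches is shown. Capitals mark the core of the hypoxia response element, ACGTG or GCGTG, on either strand. The E box CACGTG, bound by Myc among others, contains ACGTG on both strands and so appears in capitals too.
Gapdh chr6:125165724-125166023 (-): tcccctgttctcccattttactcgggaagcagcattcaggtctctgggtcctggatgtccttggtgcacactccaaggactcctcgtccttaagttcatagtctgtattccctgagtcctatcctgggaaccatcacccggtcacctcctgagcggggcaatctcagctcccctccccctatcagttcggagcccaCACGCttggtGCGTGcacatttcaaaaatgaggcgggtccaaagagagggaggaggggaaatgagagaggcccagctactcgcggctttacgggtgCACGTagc
Ldha chr7:46845554-46845853 (+): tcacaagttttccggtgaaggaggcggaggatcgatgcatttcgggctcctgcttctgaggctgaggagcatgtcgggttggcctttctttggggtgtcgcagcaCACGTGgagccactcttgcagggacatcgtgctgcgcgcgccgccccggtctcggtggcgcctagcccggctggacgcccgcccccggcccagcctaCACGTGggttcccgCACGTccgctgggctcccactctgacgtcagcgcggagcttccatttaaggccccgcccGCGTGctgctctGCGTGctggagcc
Pgk1 chrX:106186850-106187149 (+): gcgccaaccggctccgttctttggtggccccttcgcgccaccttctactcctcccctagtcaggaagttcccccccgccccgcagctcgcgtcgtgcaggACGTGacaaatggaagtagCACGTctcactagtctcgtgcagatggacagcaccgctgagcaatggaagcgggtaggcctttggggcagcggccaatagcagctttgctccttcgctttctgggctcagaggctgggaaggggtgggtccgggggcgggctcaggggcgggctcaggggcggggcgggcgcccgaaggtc
Pkm chr9:59656977-59657276 (+): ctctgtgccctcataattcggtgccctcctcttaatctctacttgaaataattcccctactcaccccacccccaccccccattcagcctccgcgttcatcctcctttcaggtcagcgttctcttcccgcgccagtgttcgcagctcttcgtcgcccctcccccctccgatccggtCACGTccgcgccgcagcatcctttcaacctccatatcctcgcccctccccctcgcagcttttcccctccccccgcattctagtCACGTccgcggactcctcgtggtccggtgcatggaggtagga
Tpi1 chr6:124814109-124814408 (-): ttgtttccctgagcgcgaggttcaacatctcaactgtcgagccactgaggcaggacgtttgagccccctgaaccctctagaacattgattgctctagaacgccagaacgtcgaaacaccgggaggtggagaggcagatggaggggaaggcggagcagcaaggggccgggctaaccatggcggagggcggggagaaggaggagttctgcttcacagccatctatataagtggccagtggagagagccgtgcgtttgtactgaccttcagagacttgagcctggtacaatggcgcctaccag
Counted on each strand, the core matched 7 times in the Ldha window, which also held CACGTG, 3 times in that of Gapdh and 2 times in those of Pgk1 and Pkm. No match lay in the Tpi1 window. Promoters were listed for 35 of the 36 members, matched by Entrez ID. At 1 or more starts, 31 of these 35 members held a core (88.6%), against 46.7% of 26994 genes, and 5 held CACGTG (14.3%, against 8.09%). The share of genes with a match rises with the number of starts. Counted per start instead, 39 of 49 promoters of members held a core (79.6%), against 43.8% of 32817 promoters. For CACGTG these were 5 of 49 (10.2%) against 7.15%. Matches also depend on base composition, whose part was not tested.

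The comparison of BMPC with nB asked how antibody-secreting cells differ from resting B cells. Both glucose transporters, 4 of the 5 regulators and the hexokinase Hk1 were lower in BMPC, and the hexokinase Hk2, the carrier Slc16a1 and Bpgm were higher. In all, 3 of 34 members were higher (9.43% of all tested genes were) and 12 were lower (39.3% of all tested genes). The share called lower thus did not exceed that of all tested genes, and the median change was -0.66, against -0.79 for all tested genes. All 6 BMPC libraries lay above all 6 nB libraries for 2 members (6.01% of all tested genes) and below them for 10 (18.8%). The number called higher was 5 without Dnmt3-sufficient BMPC replicate 2 and 6 without Dnmt3-deficient BMPC replicate 2. The nB libraries are the reference here as well as above.

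Slc2a1 was at 1.24, 0 and 0 FPKM in Dnmt3-sufficient and 12.6, 0.287 and 0 in Dnmt3-deficient BMPC, against 15.4 to 29.2 in nB. All BMPC libraries lay below all nB libraries, but Dnmt3-deficient replicate 1 stood apart with 53 reads where the others had at most 7. The change was -3.53 (SE 0.51, limma adjusted p 2.67e-05). Slc2a3 showed the same library apart, with 3.40 FPKM (36 reads) in Dnmt3-deficient BMPC replicate 1 and 0 to 0.0701 in the other 5. It fell by 3.18 on the log2 scale (SE 0.38, limma adjusted p 3.63e-06). That library also had 25.99 FPKM of Eno3, where 4 of the other BMPC libraries were at 0 to 0.293 and Dnmt3-sufficient replicate 3 was at 19.0. Its neutrophil markers summed to 21.3 FPKM, the lowest of the 6, and its erythroid markers to 1188.

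Of the regulators, Pfkfb4 was at 0 in 5 of 6 BMPC libraries and at 2.09 FPKM in Dnmt3-sufficient replicate 2, and fell by 3.53 on the log2 scale (SE 0.40, limma adjusted p 1.82e-06). Pfkfb3, the other enzyme of this pair in the list, was above 0 in the same library alone, at 1.17 FPKM, against 1.32 to 12.0 in nB. Its change was -2.27 (SE 0.44, limma adjusted p 0.00038). Hif1a was at 1.91, 6.13 and 2.51 FPKM in Dnmt3-sufficient and 0, 0 and 1.45 in Dnmt3-deficient BMPC, against 7.11 to 10.3 in nB. It fell by 1.98 on the log2 scale (SE 0.33, limma adjusted p 0.00011), and in Dnmt3-sufficient libraries alone by 1.19 with an adjusted p of 0.0665. Pdk1, a pyruvate dehydrogenase kinase, was also called lower, while Pdk3 was not called and ranged from 0.306 to 43.9 FPKM in BMPC.

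Among the enzymes, Pfkl was at 9.06, 46.1 and 9.49 FPKM in Dnmt3-sufficient and 10.5, 2.58 and 1.42 in Dnmt3-deficient BMPC, against 33.4 to 49.2 in nB. Only Dnmt3-sufficient replicate 2 overlapped with nB. Its change was -2.29 (SE 0.41, limma adjusted p 0.00018), and in Dnmt3-sufficient libraries alone -1.40 with an adjusted p of 0.0758. Pgm2, a phosphoglucomutase, was at 1.74, 0 and 0 FPKM in Dnmt3-sufficient and 18.7, 0 and 18.2 in Dnmt3-deficient BMPC, against 6.16 to 18.6 in nB. It fell by 2.01 on the log2 scale (SE 0.59, limma adjusted p 0.0089), but by 0.62 with an adjusted p of 0.672 in Dnmt3-deficient libraries alone, and by 1.30 without Dnmt3-deficient replicate 2. Aldoc, the brain type of aldolase, fell by 1.92 on the log2 scale (SE 0.76, limma adjusted p 0.0402). This call was lost in 16 of 30 alternatives, among them the loss of any 1 of 9 libraries, with an adjusted p of 0.05005 to 0.108 without them. These were Dnmt3-deficient nB replicates 1 and 3, Dnmt3-sufficient nB replicate 3, Dnmt3-sufficient GCB replicate 1, Dnmt3-deficient GCB replicate 2, and replicates 2 and 3 of BMPC of each genotype. Pkm and Eno1 were also called, with changes of -1.19 and -1.17 (limma adjusted p 0.00036 and 0.00018).

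The 3 members that were higher in BMPC each spread widely between libraries. Slc16a1 was at 4.94, 37.8 and 6.10 FPKM in Dnmt3-sufficient and 30.0, 6.002 and 8.28 in Dnmt3-deficient BMPC, above the 0.101 to 1.89 of all nB libraries. It rose by 2.69 (SE 0.51, limma adjusted p 0.00031). Hk2, the hexokinase that is induced in activated and tumor cells, was at 2.48, 11.3 and 8.45, and 10.6, 28.7 and 10.5 FPKM in BMPC, against 0.0712 to 4.06 in nB with overlap, and rose by 2.22 (SE 0.47, limma adjusted p 0.00077). Bpgm was at 24.0, 45.6 and 8.95, and 14.7, 28.1 and 17.5 FPKM, against 5.20 to 9.32 in nB, with overlap in 1 library. It rose by 1.57 (SE 0.34, limma adjusted p 0.0011). Bpgm is a gene of red cell precursors, and the erythroid markers summed to 1666, 1476 and 2935 FPKM in Dnmt3-sufficient and 1188, 381 and 192 in Dnmt3-deficient BMPC. The part of erythroid RNA in its level was not tested.

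Gapdh was not called in this comparison. All 6 BMPC libraries, at 56.9 to 107 FPKM, lay above the 37.4 to 47.3 of nB, and the change of 0.85 (SE 0.16, limma adjusted p 0.00031) stayed under the 2-fold limit. Ldha had a change of 0.25 (SE 0.14, limma adjusted p 0.145). Of the pentose phosphate members none was called, with changes from -0.34 (Pgd) to 0.68 (Rpia).

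The comparison of BMPC with GCB set both antigen-experienced cell types side by side. Of 34, 20 were lower in BMPC (33.7% of all tested genes were) and 1, Ldhb, was higher (7.72% of all tested genes). The median change of the members was -1.31, against -0.66 for all tested genes. All 6 BMPC libraries lay below all 6 GCB libraries for 13 members (18.1% of all tested genes) and above them for 0 (5.13%). The number called higher was 2 without Dnmt3-sufficient BMPC replicate 1 or 3 or Dnmt3-deficient BMPC replicate 2. Median of ratios scaling moved the median of all genes by 0.13 in this comparison. Of the 7 tested enzymes from Tpi1 to Pkm 6 were lower, as were 5 of the 6 upper enzymes and both glucose transporters.

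Pkm had the smallest p. It was at 774, 675 and 701.7 FPKM in Dnmt3-sufficient and 713, 605 and 630 in Dnmt3-deficient GCB, and at 158, 77.1 and 45.9, and 74.7, 79.9 and 141, in BMPC. The libraries did not overlap, and Pkm fell by 2.93 on the log2 scale (SE 0.23, limma adjusted p 3.43e-08). Slc2a1 fell by 3.37 on the log2 scale (SE 0.51, limma adjusted p 5.33e-05), Hif1a by 2.27 on the log2 scale (SE 0.33, limma adjusted p 3.51e-05) and Pgam1 by 2.32 on the log2 scale (SE 0.42, limma adjusted p 0.00026). In all 3 genes every BMPC library lay below every GCB library. Pgm2 (-2.57, SE 0.59, limma adjusted p 0.0020) and Pfkl (-2.27, SE 0.41, limma adjusted p 0.00024) overlapped between the cell types. In 1 genotype alone each missed the threshold, Pgm2 with an adjusted p of 0.494 in Dnmt3-deficient and Pfkl with 0.0865 in Dnmt3-sufficient libraries.

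Tpi1 was at 198, 108 and 142 FPKM in Dnmt3-sufficient and 150, 0 and 95.9 in Dnmt3-deficient BMPC. The library at 0 was Dnmt3-deficient replicate 2, the shallowest of all with 1355231 reads, whereas the other BMPC libraries had 348 to 823 reads of Tpi1. Its change was -2.28 (SE 0.83, limma adjusted p 0.0321), and -1.13 with an adjusted p of 0.000627 without that library. The call was lost in 12 of 30 alternatives, among them without Dnmt3-sufficient GCB replicate 1 or 3, Dnmt3-deficient GCB replicate 1 or 3, or Dnmt3-sufficient BMPC replicate 2 (adjusted p 0.0525 to 0.0640). The change of Aldoc was -2.07 (SE 0.76, limma adjusted p 0.0325), and its call was lost in 15 of 30, including without any 1 of 8 GCB and BMPC libraries (adjusted p 0.0572 to 0.0863). These 8 were Dnmt3-sufficient GCB replicates 1 and 3, Dnmt3-deficient GCB replicates 2 and 3, Dnmt3-sufficient BMPC replicates 2 and 3, and Dnmt3-deficient BMPC replicates 2 and 3.

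Ldhb, the subunit of lactate dehydrogenase that prevails in oxidative tissue, was the member higher in BMPC. It had 0 or 1 read in every GCB library. In nB it was at 10.7, 5.27 and 1.81 FPKM in Dnmt3-sufficient and 3.10, 0.773 and 1.32 in Dnmt3-deficient libraries. In BMPC it was at 22.9, 0 and 26.1, and 18.5, 0 and 25.7 FPKM. Replicate 2 of each genotype was at 0 reads, and the other 4 libraries lay above every library of the other cell types. The change of BMPC against GCB was 3.04 (SE 0.82, limma adjusted p 0.0063), with adjusted p of 0.0811 and 0.0705 in each genotype alone, and the mean in BMPC was at least 55.8-fold higher than in GCB taken at 3 reads per library. Taken at the same floor, the mean in nB was at least 13.7-fold above that in GCB, and all 6 nB libraries exceeded all 6 GCB libraries, but the change of -1.94 (SE 0.82) was not called (limma adjusted p 0.0961).

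The make-up of isozymes was described by the share of each in the summed FPKM of its step, without a test. Hk1 held 80.3% to 99.3% of hexokinase FPKM in nB (median 84.7%), 16.7% to 76.5% in GCB (median 41.5%) and 5.48% to 74.0% in BMPC (median 16.6%), with Hk2 as the remainder except for at most 2.12% of Hk3. The summed hexokinase level overlapped between the cell types, at 9.45 to 14.1 FPKM in GCB, 8.96 to 20.7 in nB and 9.54 to 30.3 in BMPC. Hk2 held the larger share in 5 of 6 BMPC libraries and Hk1 in all 6 nB libraries.

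Phosphofructokinase was mostly Pfkl in nB, with a median share of 68.4%, and Pfkl and Pfkp came closer in GCB, at medians of 55.1% and 41.0%. Pfkl ranged in BMPC from 4.95% to 80.4%, so that no make-up of this step can be given there. Pdk3 held 35.4% to 65.4% of the Pdk1 and Pdk3 sum in nB and 78.3% to 90.5% in GCB, without overlap. Its share in BMPC ran from 15.7% to 100%. Slc2a1 held 56.0% to 74.5% of the glucose transporter sum in nB and 81.6% to 93.0% in GCB, also without overlap. That sum was above 0 in 3 BMPC libraries, where Slc2a1 held 78.8% to 100%. Aldoa made up at least 95.06% of aldolase and Ldha at least 90.78% of lactate dehydrogenase in every library. Eno1 held 79.0% to 89.99% of enolase in nB and 94.0% to 99.8% in GCB. Of the words of Eno1, 79.0% are repeated in the genome, and 0% of those of Eno3.

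**Figure D4:**
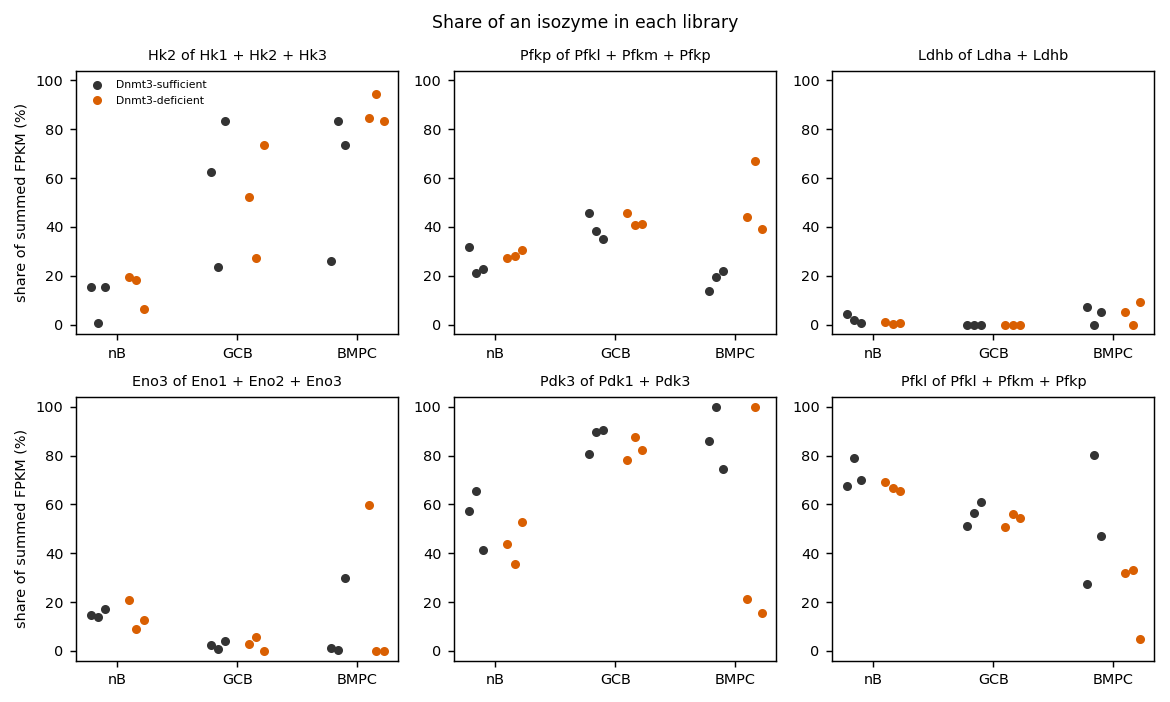
Share of 1 isozyme in the summed FPKM of its step (y axis, percent) in each library (points), by cell type and genotype. The share of Hk2 is at most 19.7% in every nB library and at least 23.5% in every GCB and BMPC library, and that of Pdk3 is higher in every GCB than in every nB library.

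The genotypes were compared within each cell type. In nB, 0 of 34 members were called (0.0521% of all tested genes were), and 0 in every alternative, with 0 members and 312 genes at an unadjusted p under 0.05. The members with the smallest adjusted p were Tkt (0.53, SE 0.45) and Pgk1 (0.40, SE 0.38), with limma adjusted p of 1. In GCB 0 of 34 were called (0% of all tested genes) and 0 in every alternative, with 1 member and 124 genes at an unadjusted p under 0.05. Slc16a3 (1.14, SE 0.34) and Pfkfb4 (-0.89, SE 0.56) came first there, with limma adjusted p of 1 and overlapping libraries. Both numbers of genes lie under a 0.05 share of the 11522 tested, the share expected without any difference. All groups share 1 spread per gene, which takes in the more variable BMPC libraries. The tests in nB and GCB are thus conservative, and 0 calls do not show that the genotypes are alike. For BMPC the shared spread works the other way. The median coefficient of variation of members within a group was 79.5% there, against 31.6% in nB and 22.1% in GCB. Standard errors and p-values between the genotypes in BMPC, given below, are thus likely too small.

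In BMPC, 1 of 34 members was called, which was Tkt and lower in Dnmt3-deficient cells (2.65% of all tested genes were lower and 1.34% higher). Tkt lies at chr14:31361545-31387908 on the plus strand of mm9. Transketolase, its product, moves 2-carbon units in the nonoxidative arm of the pentose phosphate pathway. It was at 69.9, 140 and 89.6 FPKM in Dnmt3-sufficient and 37.0, 34.5 and 18.9 in Dnmt3-deficient BMPC, without overlap. Tkt fell by 1.69 on the log2 scale (SE 0.45, limma adjusted p 0.0410). The gene of transaldolase, Taldo1, the partner of Tkt in that arm (chr7:148578098-148588867, plus strand), was at 387, 442 and 417 FPKM in Dnmt3-sufficient and 197, 182 and 274 in Dnmt3-deficient BMPC. Its libraries did not overlap either, and its change of -0.95 (SE 0.17, limma adjusted p 0.0046) passed the adjusted p and stayed just under the 2-fold limit. It passed both without Dnmt3-sufficient BMPC replicate 1 (-1.001) or Dnmt3-deficient BMPC replicate 3 (-1.13). Its adjusted p was 0.647 in a fit to the 6 BMPC libraries alone, 0.450 with quality weights and 0.145 by voom on reads. With median of ratios scaling its change was -0.77 (limma adjusted p 0.0118). Rpia, the third member of the arm, was at 12.3, 1.83 and 17.4, and 0.118, 0.142 and 7.58 FPKM, with a change of -1.99 (SE 0.74, limma adjusted p 0.129) and overlap. The Dnmt3-deficient libraries lay below the Dnmt3-sufficient ones for 5 members, Hk1, Hif1a, Pgd, Tkt and Taldo1 (7.31% of all tested genes), and above them for 0 (3.02%). These were listed after their values were seen.

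The call of Tkt was lost in 16 of 28 alternatives. With median of ratios scaling its change was -1.52 (limma adjusted p 0.0670). The factors of that scaling, relative to depth, differed by genotype. They were 0.912, 1.007 and 0.996 in Dnmt3-sufficient and 0.881, 0.824 and 0.867 in Dnmt3-deficient BMPC, without overlap. The adjusted p of Tkt was 0.790 with a quality weight per library, 0.539 by voom on reads and 0.678 in a fit to the 6 BMPC libraries alone. In that last fit limma called 0 of all genes, and 688 had an unadjusted p under 0.05. Without Dnmt3-sufficient BMPC replicate 2 or 3 or Dnmt3-deficient BMPC replicate 3 it was 0.0606 to 0.0992, and without 1 of 7 nB or GCB libraries, which are not part of the comparison, 0.0511 to 0.0604. These 7 were Dnmt3-deficient nB replicates 1 and 3, Dnmt3-sufficient nB replicate 3, Dnmt3-sufficient GCB replicates 1, 2 and 3 and Dnmt3-deficient GCB replicate 1. The markers of other cells also moved with the genotype. The erythroid markers summed to 1476 to 2935 FPKM in Dnmt3-sufficient and 192 to 1188 in Dnmt3-deficient BMPC, without overlap, and the 9 plasma cell markers to 19084 to 29727 and 34182 to 51833. The 8 macrophage and monocyte markers summed to 63.5 to 87.7 and 98.4 to 227 FPKM, and the neutrophil markers overlapped, at 79.8 to 566 and 21.3 to 701.5. The part of these in the levels of Tkt and Taldo1 was not tested.

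**Figure D5:**
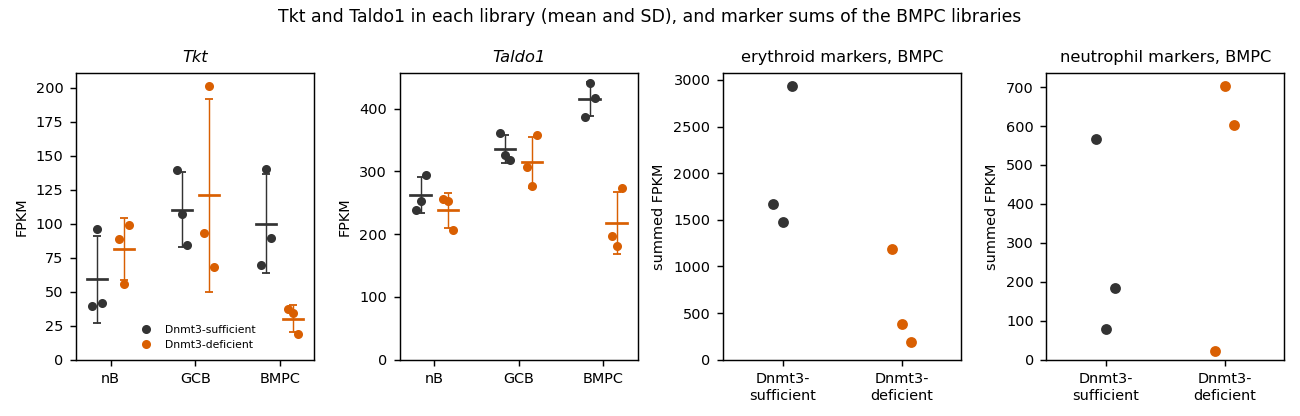
FPKM of Tkt and Taldo1 in each library (points) by cell type and genotype with the mean (bar) and SD (whiskers) of each group of 3, and the summed FPKM of erythroid and neutrophil markers in the 6 BMPC libraries. Both genes are lower in Dnmt3-deficient than in Dnmt3-sufficient BMPC without overlap, and so are the erythroid markers.

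Whether the genotype difference itself differed between cell types was tested by interaction. In 3 such comparisons 0 of 34 members were called (0% of all tested genes for GCB against nB, 0.555% for BMPC against nB and 0.425% for BMPC against GCB), by limma, and 8 members had an unadjusted p under 0.05 in at least 1 of them. For Tkt the difference between BMPC and nB was -2.23 (SE 0.63, limma adjusted p 0.153), and for Taldo1 -0.81 (SE 0.24, limma adjusted p 0.176). The fall of both genes in BMPC is thus not shown to be particular to that cell type.

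Genes that surround the list in metabolism were counted in lists of their own. Of 20 enzymes of the tricarboxylic acid cycle, 2 were higher in GCB than in nB and 0 lower (9.47% and 12% of all tested genes), with a median change of 0.72 against -0.13 for all tested genes. These were Sdhb (1.29, SE 0.14, limma adjusted p 2.34e-06), a subunit of succinate dehydrogenase, and Idh3a (1.12, SE 0.23, limma adjusted p 0.0013), a subunit of isocitrate dehydrogenase. In BMPC against nB, 5 were higher and 3 lower (9.43% and 39.3%) with a median of 0.11, against -0.79 for all tested genes. In BMPC against GCB 6 were lower, Sdha among them, and 0 higher, where 33.7% of all tested genes were lower and 7.72% higher, and the medians were -0.45 and -0.66. In Dnmt3-deficient BMPC 2 were lower (2.65% of all tested genes), Sdha (-1.40, SE 0.28, limma adjusted p 0.00837) and Fh1, fumarase (-2.22, SE 0.28, limma adjusted p 0.00021). The genotype difference of Fh1 in BMPC also differed from that in nB (-2.12, SE 0.39, limma adjusted p 0.0149). All groups share 1 spread per gene in these fits, so p-values between the genotypes in BMPC are likely too small. A fit to the BMPC libraries alone called no gene between the genotypes, Sdha and Fh1 included.

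Of 11 tested genes of glycogen metabolism, 9 were lower in BMPC than in nB and 0 higher, where 39.3% of all tested genes were lower and 9.43% higher. The median was -1.67, against -0.79 for all tested genes. They included Pygb, a glycogen phosphorylase (-3.45, SE 0.49, limma adjusted p 1.99e-05), and Gys1, a glycogen synthase (-2.66, SE 0.54, limma adjusted p 0.00055). Of 20 tested genes of the hypoxia response, 0 were higher and 2 lower in GCB than in nB, where 9.47% of all tested genes were higher and 12% lower, with a median of -0.34 against -0.13. In BMPC against nB 0 were higher and 8 lower, a share near the 39.3% of all tested genes, with a median of -0.56 against -0.79. In Dnmt3-deficient against Dnmt3-sufficient BMPC the list had a median of -0.53, against -0.05 for all tested genes, and 5 of 20 had a change above 0. Of these 2 were called higher (1.34% of all tested genes were), Mxi1 (3.121, SE 0.44, limma adjusted p 0.000595) and P4ha1 (2.74, SE 0.75, limma adjusted p 0.0470). A fit to the BMPC libraries alone called neither gene. The 2 lower in GCB were Bhlhe40 (-1.59, SE 0.39, limma adjusted p 0.0059) and Bnip3l (-1.05, SE 0.24, limma adjusted p 0.0036).

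Of 24 other tested genes of glycolysis and pyruvate entry, 1 was higher and 2 lower in GCB than in nB (9.47% and 12% of all tested genes), and 2 were higher and 4 lower in BMPC than in nB (9.43% and 39.3%). In BMPC against GCB 5 were higher and 4 lower (7.72% and 33.7%). Pdk2, a further pyruvate dehydrogenase kinase, was lower in GCB than in nB (-2.23, SE 0.45, limma adjusted p 0.0013), and in BMPC it was higher in the Dnmt3-deficient libraries (3.11, SE 0.64, limma adjusted p 0.0103). A fit to the BMPC libraries alone did not call this genotype difference. Pklr, the pyruvate kinase of liver and red cells, was higher in BMPC than in nB (3.08, SE 0.47, limma adjusted p 4.24e-05), in libraries with 192 to 2935 FPKM of erythroid markers. Of 9 other tested genes of the pentose phosphate pathway and nucleotide sugars, 2 were higher and 1 lower in GCB than in nB (9.47% and 12% of all tested genes), and 4 were lower in BMPC than in GCB (33.7%). Prps2, which makes phosphoribosyl pyrophosphate from ribose phosphate, was among the latter (-2.62, SE 0.58, limma adjusted p 0.0014).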

How the data were processed

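RNA-seq libraries of 5000 sorted cells were made by the authors with PCR and no molecular identifiers. Per the study's methods, reads were mapped to mm9 with TopHat, set to report at most 1 alignment per read, and unique overlaps with exons of UCSC KnownGenes were counted. Per the submitters' processing notes, R 3.2.2 and edgeR 3.12.1 were used. The strand setting is not given in the sources used here. The authors deposited FPKM per gene and library. Columns of their own comparisons (log2 changes, p-values and calls) were not used.

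FPKM were tested as log2(FPKM + 1) with limma 3.58.1 (R 4.3.3, moderated with a trend), with 1 mean per group over 18 libraries, for the 11522 of 21761 genes above 1 FPKM in 2 libraries or more. Adjustment (Benjamini-Hochberg) ran over all genes tested, and genes were called where the change reached 1 in size and the adjusted p was no more than 0.05. The fold understates changes of low genes. Whole reads were recovered from the FPKM for 100% of values (tolerance 0.05 reads), which gave the depths and an alternative with voom. A floor of 3 reads was used against groups near 0, and floors cover counting error only. Libraries did not repeat each other. The labels do not tie each library to its own mouse or sort day, so p-values measure the spread between these libraries. The test of GCB against nB was tried on data simulated with the same setting of spread for every gene and library. That trial does not cover the comparisons with BMPC or between genotypes.

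The members and lists were chosen with earlier results of these data known. Values are given for up to 8 called members per direction with the largest change in each cell type comparison, for each called member and the 2 with the smallest adjusted p in each genotype comparison, and for at most 4 called genes of each other list. Members outside this rule were named after their values were seen. Some items are not reported here.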

Additional observations from a re-analysis of the deposited data

How the results depend on the processing

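Alternatives for single members were run for 36 pairs of member and comparison, chosen by the rule given above. None of these values changed direction in any alternative run. Other called members were not followed singly. Of 518 counts of members under alternatives, 476 lay within 1.5 times the count reported, and of 1069 values of single members, 982 kept their side of the threshold, 84 lost it and 3 gained it. In GCB against nB, 7 members were higher at an adjusted p of 0.01 and 6 in Dnmt3-deficient libraries only, and the number lower was 4 with only the groups compared, 5 with a quality weight per library, 4 by voom on recovered reads and 1 in Dnmt3-deficient libraries only. In BMPC against nB, 6 were higher in Dnmt3-sufficient libraries only. In BMPC against GCB, the number higher was 2 with median of ratios scaling, 2 with sex as a covariate and 0 in each genotype alone. In Dnmt3-deficient against Dnmt3-sufficient BMPC, the number lower was 2 with a pseudocount of 0.1, 2 with sex as a covariate and 2 with no minimum change, and 0 with no filter, with median of ratios scaling, with only the groups compared, with a quality weight per library and at an adjusted p of 0.01. The causes were not tested.

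With 1 library left out, members higher in GCB than in nB ranged from 7 to 12 and lower from 2 to 3. In BMPC against nB they ranged from 3 to 6 higher and 10 to 14 lower, and in BMPC against GCB from 1 to 2 higher and 16 to 20 lower. In Dnmt3-deficient against Dnmt3-sufficient BMPC they ranged from 0 to 1 higher, with 1 without Dnmt3-deficient BMPC replicate 2, and from 0 to 4 lower, with 0 without 1 of the 7 nB or GCB libraries named beside Tkt, 4 without Dnmt3-sufficient BMPC replicate 1 and 3 without any 1 Dnmt3-deficient BMPC library. In the interactions of BMPC with nB and of BMPC with GCB, 0 to 1 were higher and 0 to 1 lower, with 1 without Dnmt3-deficient BMPC replicate 2 and, for lower against GCB, also without Dnmt3-deficient BMPC replicate 3.

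The titles of the GCB libraries share a letter and a number between genotypes. Deviations of libraries with the same label correlated by -8.06e-05, -0.0171 and 0.0257. With 3 libraries per group these values do not show a pairing and cannot exclude one. With a replicate block limma called 0 members in GCB, and 0 genes of all tested with 717 at an unadjusted p under 0.05. BMPC depth, at most 3803197 reads, limits what could be detected for low members there.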
